A study of Homo sapiens with 18 samples.

Results

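The comparison asked where the response of HepG2 cells to the small molecule 6N-10CA, whose name joins those of 6N and 10CA, differed from the sum of the responses to 6N and to 10CA. For every gene the quantity of interest was the log2 level with 6N-10CA, minus that with 6N, minus that with 10CA, plus that with DMSO. A value of 0 means that the effect of 6N-10CA against DMSO equalled the 6N effect plus the 10CA effect, and this value is called the departure from the sum below. It drew on 12 of the 18 libraries, 3 in each of 4 groups, and was tested in all 14797 genes of 35238 that passed a filter on low counts. All 4 groups were HepG2 cells, an established human liver cancer line, kept in medium whose serum was charcoal-stripped for the experiment, with no genetic change named in the labels. The groups received the vehicle DMSO at 0.1%, or 6N, 10CA or 6N-10CA at 10 µM each, so that the 3 compounds stand at a matched dose. The other groups, ethanol at 0.1% and the phospholipid DLPC at 100 µM with 3 libraries each, entered the low-count filter, the replicate block and the shared estimate of spread, and ethanol served as another zero in 2 alternatives. A single tumour line without other liver cells limits what the data describe, and the length of treatment is not given in the sources used here.

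The series concerns LRH-1 (NR5A2), a nuclear receptor of the liver with known targets in bile acid, sterol and lipid metabolism. Sterol and fatty acid synthesis are driven by the SREBP transcription factors, SREBF2 mainly for cholesterol and SREBF1 mainly for fatty acids, and the sterol-sensing receptor LXR raises SREBF1 and a set of lipid genes. Foreign aromatic compounds act through the aryl hydrocarbon receptor, whose best-known target is CYP1A1. These pathways were described from gene lists, together with lists for stress responses, cell division and liver identity.

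Total counts ran from 28988419 to 34992442 in the 12 libraries. Albumin and the other markers of liver cells were present in every library. Of the vessel and blood markers, KDR and HBB had a count of 0 in all 12, while CDH5, PECAM1, VWF, HBA1 and PTPRC were present in every library. With 6N-10CA these averaged 19.7, 12.8, 4.08, 2.04 and 0.218 CPM in that order, before TMM scaling. The 16 markers of stromal, endothelial and blood cells summed to 217 to 257 CPM, mostly from ACTA2 and CD68, and none of the 9 that were tested was called in the departure. NR5A2 itself (chromosome 1, 200027602 to 200177424, GENCODE positions on GRCh38 here and below) read 3.97, 3.11 and 4.48 CPM with DMSO and 3.25, 4.43 and 4.39 CPM with 6N-10CA, and its departure was -0.12 (95% interval -0.61 to 0.37, edgeR adjusted p = 0.866). CPM is a gene's count per 1000000 counts of the library's TMM-scaled total, and an edgeR adjusted p is the Benjamini-Hochberg value of the quasi-likelihood test over all tested genes.

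The effect of 6N-10CA differed from the sum in 286 genes at an adjusted p under 0.05, which is 1.93% of the genes tested. In 196 genes (1.32%) the level with 6N-10CA was above the sum and in 90 (0.608%) it was below, and 2107 genes had an unadjusted p under 0.05. The genes above the sum included most tested genes of cholesterol and fatty acid synthesis, mostly called lower with 6N and close to or above the DMSO level with 6N-10CA. Among the genes called below with a mean of 1 CPM or more, CYP1A1 departed furthest and no other reached 2-fold. The departures above had a median of 0.45 and 19 of them exceeded 2-fold, whereas those below had a median of -0.24 with 2 over 2-fold. The count rests on the replicate number as a block: without it, 88 genes were called, 84 above and 4 below (95.5% above, against 68.5% with it), and all 88 were among the 286. Without DMSO number 3 or 6N-10CA number 1 the count was 183 and 186. With library size as the only scaling, 318 genes were called and the split was 179 above and 139 below (56.3% above).

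The size and sign of the single effects describe the 2 sets, with the caution that the departure holds the same 6N, 10CA and DMSO libraries as these effects, so that a low 6N level raises it by construction. Over the 196 genes above the sum the median log2 effect was -0.29 for 6N, -0.08 for 10CA and 0.09 for 6N-10CA. Over the 90 genes below it the medians were 0.12, 0.06 and -0.06 in the same order. In 147 of the 196 and 67 of the 90 the 6N-10CA effect and the sum had opposite signs, which held for 33.5% of all tested genes. In 47 of those above and 22 of those below, the 6N-10CA effect had the sign of the sum but a smaller size. This held for 43.9% of all tested genes. An effect larger than the sum and of the same sign occurred in 3 called genes, PALMD and PLIN2 above and GPD1 below. Over all tested genes this share was 22.5%. The departure behind the calls is the 6N-10CA effect minus this sum, so calls and classes are not independent. The plot of the observed effect against the sum shows the genes above it spread far to the left at heights near 0.

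**Figure D1:**
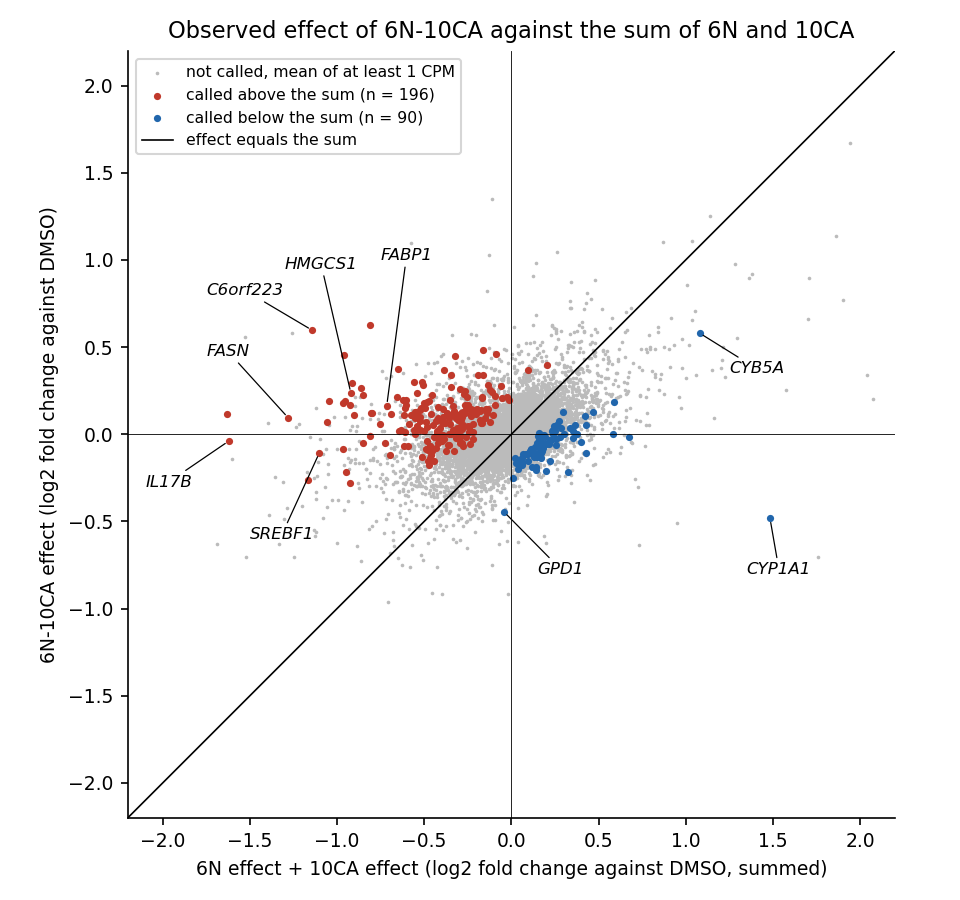
Log2 effect of 6N-10CA against DMSO (vertical axis) plotted against the sum of the 6N and 10CA effects (horizontal axis), 1 point per gene, with the 196 genes called above the sum in red, the 90 called below in blue and other genes averaging 1 CPM or more in grey. Most red points lie left of 0 and near or above the horizontal zero line, and axes end at 2.2 in either direction, beyond which 3 called genes with low counts (AC009950.1, ARMCX7P and RP11-618P17.4) are not drawn.

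Against DMSO in the same fit, 551 genes (3.72%) were called with 6N, 1.34% of the tested genes as higher and 2.39% as lower. With 10CA 32 (0.216%) were called, 0.128% higher and 0.0879% lower, and with 6N-10CA 562 (3.80%), 1.68% higher and 2.12% lower, comparisons that share the DMSO libraries. Of the 196 genes above the sum, 145 were called lower with 6N, 7 were called with 10CA and 42 with 6N-10CA. Of the 90 genes below, 32 were called higher with 6N, 7 were called with 10CA and 16 with 6N-10CA. No compound alone was called in 38 of those above and 42 of those below, where the departure passed but none of its parts did. In the direct comparison of 6N-10CA with 6N, where 1231 genes (8.32%) were called, 3.90% higher and 4.42% lower, 179 of the 196 were higher with 6N-10CA and 69 of the 90 were lower. The departure equals this difference minus the 10CA effect, so this agreement in direction is largely built in where the 10CA effect is small. Without the block the single comparisons called 169 genes for 6N, 0 for 10CA, 39 for 6N-10CA and 242 for 6N-10CA against 6N.

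Genes of cholesterol synthesis and uptake stood above the sum almost as a whole: of 26 tested members, 24 were called above and 0 below. The shares over all tested genes were 1.32% above and 0.608% below. The list's median departure was 0.65, against -0.0017 over all tested genes, and its median effects were -0.43 for 6N, -0.08 for 10CA and 0.11 for 6N-10CA. With 6N, 24 members were called lower, and with 10CA 1 was, EBP, which works late in the pathway. With 6N-10CA 0 members were called lower and 9 were called higher: ACAT2, DHCR7, FDFT1, FDPS, HMGCS1, IDI1, LSS, MVD and SREBF2. The exceptions were SCAP, the escort protein of the SREBPs, with a departure of -0.03, and PMVK, the phosphomevalonate kinase, with 0.04.

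HMGCS1, which makes HMG-CoA for sterol synthesis (chromosome 5, 43289395 to 43313512), read 286, 324 and 312 CPM with DMSO, 165, 169 and 178 with 6N, 265, 313 and 300.0 with 10CA and 336, 373 and 376 with 6N-10CA. All 3 libraries with 6N lay below all others and all 3 with 6N-10CA lay above all others; in a bulk library, fewer cells with an mRNA and less of it per cell cannot be told apart. The level at which 6N-10CA would have equalled the sum was 162 CPM and the geometric mean observed was 361 CPM, a log2 departure of 1.16 (SE 0.07, edgeR adjusted p = 3.93e-10). Within replicate numbers 1, 2 and 3 the departure was 1.14, 1.19 and 1.14.

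MVD, the mevalonate diphosphate decarboxylase, read 305, 353 and 321 CPM with DMSO, 208, 190.2 and 184 with 6N, 272, 293 and 281 with 10CA and 369.7, 377 and 371 with 6N-10CA, with a log2 departure of 1.15 (SE 0.07, edgeR adjusted p = 2.66e-10). Its 6N libraries again lay below, and its 6N-10CA libraries above, all others. LSS, the synthase that makes lanosterol, the first sterol of the pathway, read 501, 478 and 452 CPM with DMSO, 312, 291 and 284 with 6N and 574, 538 and 557 with 6N-10CA, with a departure of 1.08.

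NPC1L1, a sterol importer on the uptake side of the list, departed by 0.42. SREBF2, the transcription factor over the pathway (chromosome 22, 41833079 to 41907308), departed by 0.46, from effects of -0.33 with 6N, 0.003 with 10CA and 0.13 with 6N-10CA.

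These genes share SREBP as a known regulator. The RefSeq promoters on GRCh38.p14, as 250 bases before each start, were therefore searched on both strands. The search was for 1 exact form of the sterol regulatory element, whose letters stand in capitals in the SREBF2 sequence printed here. Other forms were not searched. This form occurred in 12 of 35093 promoters (0.034%) and in 1 of the 19 list members that had a promoter in the table, SREBF2. The stretch of that promoter around the match, on the plus strand at chr22:41832911-41833040, is shown with the match in capitals. The match lies 134 to 125 bases before the RefSeq start:
SREBF2: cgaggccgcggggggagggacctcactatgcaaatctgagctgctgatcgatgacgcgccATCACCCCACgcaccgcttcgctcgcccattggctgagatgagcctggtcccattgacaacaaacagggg
The last bases of the match overlap a minus-strand match to GCGTG, the core searched for the aryl hydrocarbon receptor. An LRH-1 element, TCAAGGNCA, occurred in 356 promoters (1.014%) and in 1 of the 19, HMGCS1, at 99 to 91 bases before a start. GCGTG itself occurred in 17 of the 19 and in 32.206% of all promoters. Of the 18 fatty acid list members with a promoter, 0 held this exact form of the sterol element, 0 the LRH-1 element and 12 GCGTG. A list member counted when any of its promoters matched, whereas the shares of all promoters count each promoter, so these have unlike units. A match is a description of these letters and not a measured binding site.

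Fatty acid and triglyceride synthesis was above the sum in 13 of 22 tested members and below in 1, against 1.32% and 0.608% of all tested genes. The list had a median departure of 0.61 and median effects of -0.39 for 6N, 0.01 for 10CA and 0.12 for 6N-10CA. The fatty acid synthase FASN (chromosome 17, 82078333 to 82098332) read 654, 886 and 850.1 CPM with DMSO, 325, 376 and 363 with 6N, 662, 759 and 775 with 10CA and 810.0, 885 and 846 with 6N-10CA. The 3 libraries with 6N lay well below the other 9, while DMSO and 6N-10CA overlapped. The sum corresponded to 328 CPM and 847 CPM were observed, a log2 departure of 1.37 (SE 0.10, edgeR adjusted p = 1.27e-08), which was the largest of any list member above the sum.

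SREBF1 (chromosome 17, 17810399 to 17837002), the regulator of this pathway, read 289.9, 321 and 308 CPM with DMSO, 142, 163 and 143 with 6N, 270.0, 309.8 and 301 with 10CA and 276, 292 and 285 with 6N-10CA. Its 6N libraries lay below all others, and its 6N-10CA libraries overlapped those of 10CA and DMSO. Its departure was 0.99 (SE 0.06, edgeR adjusted p = 2.66e-10). FADS2, the delta-6 desaturase, read 590.3, 565 and 543 CPM with DMSO, 319, 276 and 274 with 6N, 544, 541 and 521 with 10CA and 658, 628 and 648 with 6N-10CA, with 6N below and 6N-10CA above all others and a log2 departure of 1.24 (SE 0.05, edgeR adjusted p = 3.25e-12). SCD, the delta-9 desaturase, departed by 0.93, the acetyl-CoA synthetase ACSS2 by 1.13 and the elongase ELOVL6 by 0.81.

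The earlier steps ACLY and ACACA, which supply acetyl-CoA and malonyl-CoA, departed by 0.67 and 0.66, and the second carboxylase ACACB by -0.06, which was not called. DGAT2, which performs the last step of triglyceride synthesis, was the single member called below, at -0.17 (edgeR adjusted p = 0.0462), from effects of 0.29 with 6N and 0.13 with 6N-10CA, and its adjusted p without the block was 0.541. AGPAT2 and LPIN1, which act before it, missed the threshold at 0.35 (edgeR adjusted p = 0.0551) and 0.45 (edgeR adjusted p = 0.0513). MLXIPL, the sugar-sensing factor ChREBP, was above at 0.33 with no single effect called (edgeR adjusted p = 0.263 without the block). The plot of single effects shows the sum close to the 6N effect for nearly every member, because the 10CA effects were small.

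**Figure D2:**
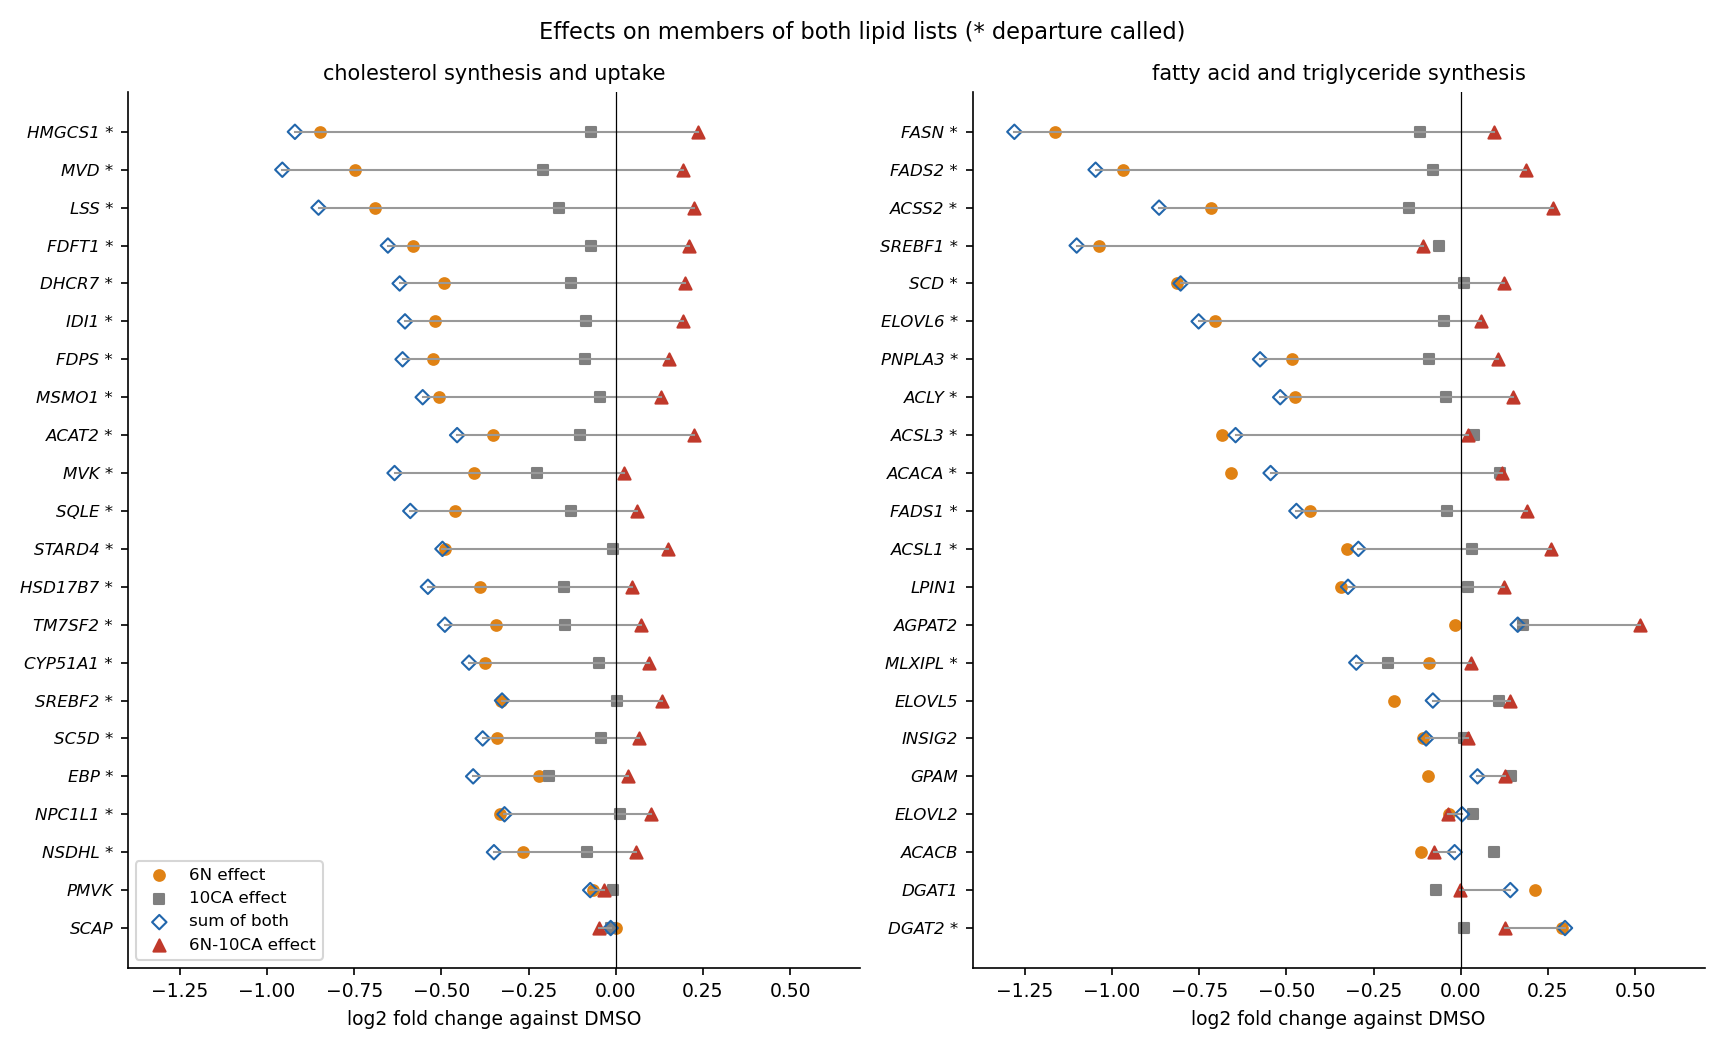
Log2 effects against DMSO of 6N (circles), 10CA (squares), their sum (open diamonds) and 6N-10CA (triangles) for 22 of the 26 tested members of the cholesterol list (left) and all 22 of the fatty acid and triglyceride list (right), ordered by departure, which is the length of the grey line. Stars mark called departures, 20 above on the left and 13 above with DGAT2 below on the right.

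Among 12 tested LXR targets, 4 were called above and 0 below: SREBF1 and SCD, which the fatty acid list also holds, MYLIP at 0.90 and LPCAT3 at 0.42. For this list and the next, the shares over all tested genes were 1.32% above and 0.608% below. MYLIP, a ubiquitin ligase, had effects of -1.03 with 6N and -0.26 with 6N-10CA, and LPCAT3, which puts polyunsaturated chains into phosphatidylcholine, of -0.39 and 0.01. The sterol exporters ABCA1, ABCG5 and ABCG8, also LXR targets, were not called, with departures of 0.06, 0.28 and -0.01. Of 20 tested genes of phosphatidylcholine synthesis and remodelling, 2 were above (LPCAT3 and the ethanolamine enzyme PCYT2 at 0.24) and 1 below (PTDSS1, a phosphatidylserine synthase, at -0.22 and with an adjusted p of 0.644 without the block), and the list's median was 0.04.

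Lipoprotein genes were above in 5 of 20 tested members and below in 0, with a median departure of 0.14. The shares over all tested genes were 1.32% above and 0.608% below. LIPG, the endothelial lipase, read 15.6, 20.3 and 19.5 CPM with DMSO, 11.7, 14.2 and 12.9 with 6N, 12.7, 21.3 and 16.7 with 10CA and 19.5, 26.3 and 26.1 with 6N-10CA, with a log2 departure of 1.02 (SE 0.12, edgeR adjusted p = 1.08e-05). Its 6N libraries lay below the DMSO libraries and overlapped those of 10CA, and the lowest 6N-10CA library overlapped the DMSO libraries. The apolipoprotein gene APOC1 departed by 0.41, APOA2 by 0.28 and APOA5 by 0.23, each with an edgeR adjusted p over 0.05 without the block. The structural apolipoprotein APOB and the transfer protein MTTP were not called (0.10 and -0.05).

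FABP1, the liver fatty acid binding protein (chromosome 2, 88122982 to 88128116), is on the lists of LRH-1 targets and of fatty acid oxidation and PPAR targets. It read 947, 803 and 897 CPM with DMSO, 683, 448 and 568 with 6N, 964, 719.7 and 871 with 10CA and 1118, 862 and 999 with 6N-10CA. The 6N libraries lay below all others, and the replicates of each group spread widely, with number 2 lowest in all 4 groups. Its log2 departure of 0.88 (SE 0.06, edgeR adjusted p = 7.25e-09) came with an adjusted p of 0.0589 without the block. Of the 21 tested genes of fatty acid oxidation and PPAR targets, 4 were called above, against 1.32% of all tested genes. They were FABP1, the thioesterase ACOT1 at 0.47, the carnitine palmitoyltransferase CPT2 at 0.24 and the lipid droplet coat protein PLIN2 at 0.19. ACOT1 alone of the 4 was also called without the block, where CPT2 had an adjusted p of 0.518. CPT1A, the gatekeeper of oxidation, was not called at -0.34 (95% interval -0.76 to 0.08), and the list's median was 0.03.

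PLIN2 (chromosome 9, 19108375 to 19149290) was one of the 3 called genes whose effect exceeded the sum in the same direction. It read 639, 624 and 721 CPM with DMSO, 689, 615 and 697 with 6N, 763, 681 and 827 with 10CA and 909, 804 and 898 with 6N-10CA. With 6N-10CA 2 libraries lay above all of the other groups and the lowest, number 2, lay within the range of 10CA. Its effects were 0.01 with 6N, 0.19 with 10CA and 0.40 with 6N-10CA, and its departure of 0.19 had an edgeR adjusted p of 0.0319, or 0.743 without the block.

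The largest departures above the sum by the naming rule lay partly outside the lipid lists. IL17B, a cytokine of the IL-17 family (chromosome 5, 149371324 to 149404202), read 24.6, 24.6 and 24.8 CPM with DMSO, 12.7, 8.49 and 8.61 with 6N, 21.8, 18.6 and 19.7 with 10CA and 25.8, 22.2 and 24.2 with 6N-10CA, with a log2 departure of 1.58 (SE 0.11, edgeR adjusted p = 6.15e-09). Its 6N libraries lay below all others, and its 6N-10CA libraries spanned the DMSO values. IL21R, the receptor of interleukin-21 (chromosome 16, 27402162 to 27452042), read 11.1, 10.2 and 10.8 CPM with DMSO, 5.78, 4.66 and 6.00 with 6N, 11.6, 10.1 and 10.5 with 10CA and 14.4, 13.7 and 15.8 with 6N-10CA, with a log2 departure of 1.41 (SE 0.12, edgeR adjusted p = 1.51e-07). Here 6N was lowest and 6N-10CA highest with no overlap. C6orf223 read 4.43, 2.98 and 2.94 CPM with DMSO, 1.6, 1.51 and 1.58 with 6N, 4.25, 2.44 and 3.58 with 10CA and 7.72, 3.70 and 4.56 with 6N-10CA, a departure of 1.74 (edgeR adjusted p = 0.0001, or 0.0807 without the block). One 6N-10CA library, number 1, was far above the other 2 in that gene.

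FSIP2, SCART1 and CAPN12 also passed the rule at low levels, with departures of 1.44, 1.21 and 1.15 and SEs of 0.30, 0.18 and 0.27, and CAPN12 had an adjusted p of 0.213 without the block. The pseudogene ARMCX7P had the largest fitted departure of the genes that met the naming rule and rests on few reads: 84, 60 and 67 counts with DMSO, 22, 23 and 8 with 6N, 28, 6 and 0 with 10CA and 54, 77 and 50 with 6N-10CA. Its low values with 10CA, 0 in 1 library, make the fitted size uninformative, and no fold is given. The plot of departures within each replicate number shows how far the 3 values of a gene lie apart; their common sign was a condition of the naming rule.

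**Figure D3:**
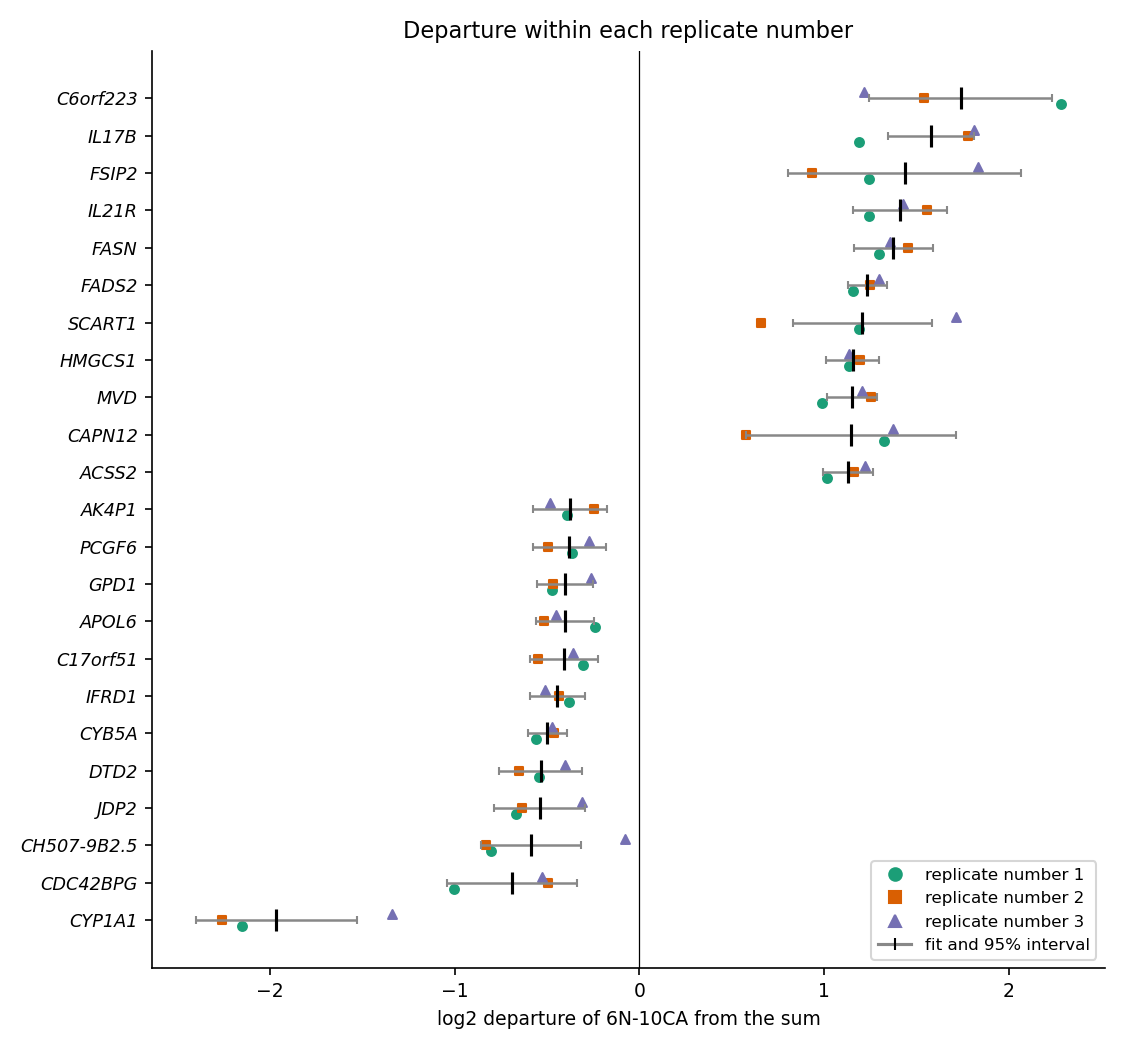
Log2 departure from the sum for the 11 largest genes above (ARMCX7P left out for its low counts) and the 12 largest below, as the fitted value with its 95% interval (bar) and as the value within each replicate number (symbols). By the naming rule all symbols of a gene lie on 1 side of 0, and CH507-9B2.5 and CYP1A1 vary most among the genes below.

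Among the 10 genes above the sum that were called with 6N-10CA and with neither parent were ARG1, the arginase of the urea cycle, at 0.53, the growth factor IGF2 at 0.38 and the glutamate transporter SLC1A2 at 0.35, chosen after their values were seen. Without the block none of these 3 was called, with adjusted p-values of 0.595, 0.768 and 0.54. ARG1 read 18.2, 14.6 and 17.4 CPM with DMSO, 16.7, 10.9 and 13.4 with 6N, 19.7, 17.5 and 16.6 with 10CA and 24.6, 19.3 and 19.5 with 6N-10CA. The level with 6N-10CA was higher than with DMSO by 0.34 on the log2 scale, with a 6N effect of -0.30. A further 29 genes above the sum were called lower with 6N and higher with 6N-10CA, among them ALDOC, a glycolytic aldolase (-0.34 and 0.34), UCP2, a mitochondrial carrier (-0.34 and 0.20), and the acyl-CoA synthetase ACSL4 (-0.38 and 0.21).

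Below the sum, CYP1A1 (chromosome 15, 74719542 to 74725610), the main oxidase induced through the aryl hydrocarbon receptor, had the largest departure of the genes called below with a mean of 1 CPM or more. It read 8.60, 10.9 and 10.4 CPM with DMSO, 36.9, 41.3 and 37.0 with 6N, 4.96, 11.4 and 5.59 with 10CA and 4.75, 9.005 and 7.82 with 6N-10CA. The 6N libraries lay above all others without overlap, and the 10CA, 6N-10CA and DMSO libraries overlapped. The sum corresponded to 26.5 CPM and 7.01 CPM were observed, both from averaged log levels. By the fitted departure, the level was 3.91-fold below the sum (95% interval of the log2 departure -2.40 to -1.53, edgeR adjusted p = 3.47e-06). Its effects were 1.95 with 6N, -0.47 with 10CA and -0.48 with 6N-10CA.

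CYP1A1 was the single called member of 21 tested genes of xenobiotic metabolism, where 1.93% of all tested genes were called. AHR, the receptor itself, its repressor AHRR and its target TIPARP departed by -0.22, -0.52 and 0.05, and CYP1A2 by -0.31 with an SE of 0.43. CYP24A1, which degrades vitamin D, had a large departure of -1.74 that missed the threshold (SE 0.47, edgeR adjusted p = 0.0635), after effects of 1.97 with 6N and 1.07 with 6N-10CA. CYP3A7, the fetal member of the CYP3A family, rose with 6N by 0.84 and with 6N-10CA by 0.57, with a departure of -0.22 that was not called. Of 18 list members with a RefSeq promoter, 3 held the receptor's core motif GCGTG, namely AHRR, TIPARP and CYP1A1. A member counted when any of its windows of 250 bases before a start matched. The motif occurred in 32.206% of all promoters, counted per promoter and not per gene. The stretch around the CYP1A1 match lies on the minus strand at chr15:74725569-74725597, inside the GENCODE span of the gene given above. Its motif, in capitals, lies 57 to 53 bases before a RefSeq start within that span. The stretch is shown because CYP1A1 is the gene that departs:
CYP1A1: ccagggaaggagGCGTGgccacacgtaca
The window holds no match to the searched form of the sterol element or to the LRH-1 element.

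CYB5A, the electron carrier cytochrome b5 (chromosome 18, 74250847 to 74292016), was called in every comparison with DMSO. It read 195, 184 and 190.3 CPM with DMSO, 363, 319.8 and 323 with 6N, 235, 216 and 230.0 with 10CA and 296, 274 and 281 with 6N-10CA, with no overlap between any of the groups. The sum corresponded to 401 CPM and 284 CPM were observed, a log2 departure of -0.50 (SE 0.05, edgeR adjusted p = 1.95e-06). The 6N-10CA effect of 0.58 was thus above 0 and smaller than the 6N effect of 0.82 alone. Measured against the mean of the parents in place of their sum, CYB5A turned to a departure of 0.04, which was not called.

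GPD1, the glycerol-3-phosphate dehydrogenase that links sugar breakdown to glycerolipids (chromosome 12, 50103819 to 50111319), fell below the sum with hardly any effect of the parents. It read 77.9, 80.1 and 75.5 CPM with DMSO, 82.1, 86.1 and 71.5 with 6N, 69.9, 77.6 and 73.8 with 10CA and 53.1, 60.4 and 58.3 with 6N-10CA. The 6N-10CA libraries lay below all others, and the other 3 groups overlapped. Its effects were 0.04, -0.08 and -0.44 for 6N, 10CA and 6N-10CA, with a departure of -0.40 (edgeR adjusted p = 0.00293, or 0.194 without the block). TXNIP, a glucose-responsive regulator of thioredoxin, was the other of 22 tested genes of glucose metabolism that was called, at -0.27 (edgeR adjusted p = 0.00613, or 0.784 without the block), and 0 were above. The shares over all tested genes were 0.608% below and 1.32% above. The gluconeogenic genes PCK1 and G6PC had departures of 0.38 and -0.25 that were not called.

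Amino acid response and ATF4 targets lay slightly below the sum: 24 of 28 tested members had a negative departure, with a median of -0.12, 3 were called below and 1 above. Over all 14797 tested genes, 7464 had a negative departure, 0.608% were called below and 1.32% above. ASNS, the asparagine synthetase (chromosome 7, 97852118 to 97872542), read 102, 88.6 and 108 CPM with DMSO, 103, 101 and 115 with 6N, 126, 106 and 132 with 10CA and 106, 88.1 and 107 with 6N-10CA. The ranges of all 4 groups overlapped, while within each number 10CA was the highest. Its departure was -0.37 (edgeR adjusted p = 0.000906, or 0.491 without the block), with an effect of 0.28 for 10CA and 0.0042 for 6N-10CA. PSAT1 of serine synthesis at -0.23 and the folate enzyme MTHFD2 at -0.25 were the others below, both called higher with 10CA, with adjusted p-values of 0.168 and 0.229 without the block. TRIB3, a pseudokinase induced by stress, went the other way at 0.35 (edgeR adjusted p = 0.000339), with effects of -0.24 with 6N and 0.12 with 6N-10CA.

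Cell cycle genes showed a small shift in the same direction. Over all 14797 tested genes, 7464 departures were negative and 0.608% were called below. Of the 34 tested cell cycle members, 33 had a negative departure, with a median of -0.14, 6 were called below and 0 above. The called members were the mitotic kinases AURKA (-0.22) and PLK1 (-0.18), the cyclins CCNB1 (-0.19) and CCNA2 (-0.18), and MCM2 (-0.19) and MCM4 (-0.19) of the replicative helicase. AURKA read 202, 223.5 and 209.5 CPM with DMSO, 227, 247 and 234 with 6N, 196, 229.7 and 216 with 10CA and 193, 213 and 210.0 with 6N-10CA. Its 6N libraries lay above all of those of DMSO, and those of 6N-10CA overlapped DMSO. The list's median effects were 0.10 for 6N, 0.03 for 10CA and -0.01 for 6N-10CA, 9 members were called higher with 6N and 1, PLK1, was called lower with 6N-10CA. Without the block 0 of the 34 were called, and 0 to 7 were called when 1 library or 1 replicate number was left out, and 12 with library size as the only scaling.

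The other large departures below the sum were in the kinase CDC42BPG (-0.69), the AP-1 repressor JDP2 (-0.54), the D-aminoacyl-tRNA deacylase DTD2 (-0.54), IFRD1 (-0.44), C17orf51 (-0.41), APOL6 (-0.40) and PCGF6 (-0.38), with CH507-9B2.5 (-0.59) and AK4P1 (-0.37). Several of these calls were fragile. Of 27 refits, the call was lost in 18 for CDC42BPG, 17 for AK4P1, 15 for PCGF6, 11 for CH507-9B2.5 and 10 for C17orf51. It was lost in 7 for JDP2, 4 each for DTD2 and APOL6, and 2 for IFRD1. CDC42BPG averaged 4.30 CPM (edgeR adjusted p = 0.0353), and AK4P1 was close to the threshold (edgeR adjusted p = 0.0488). DTD2 read 10.8, 11.2 and 11.1 CPM with DMSO, 12.3, 13.7 and 11.6 with 6N, 12.1, 14.2 and 13.1 with 10CA and 9.47, 11.01 and 10.3 with 6N-10CA. The 6N-10CA libraries overlapped those of DMSO and lay below those of both parents. Of the 90 genes below, CYB5A, CYP1A1, DTD2 and the ribosome assembly factor RSL24D1 were called without the block.

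The plot of levels in each library sets the observed level with 6N-10CA beside the level that the sum would give for 10 of these genes.

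**Figure D4:**
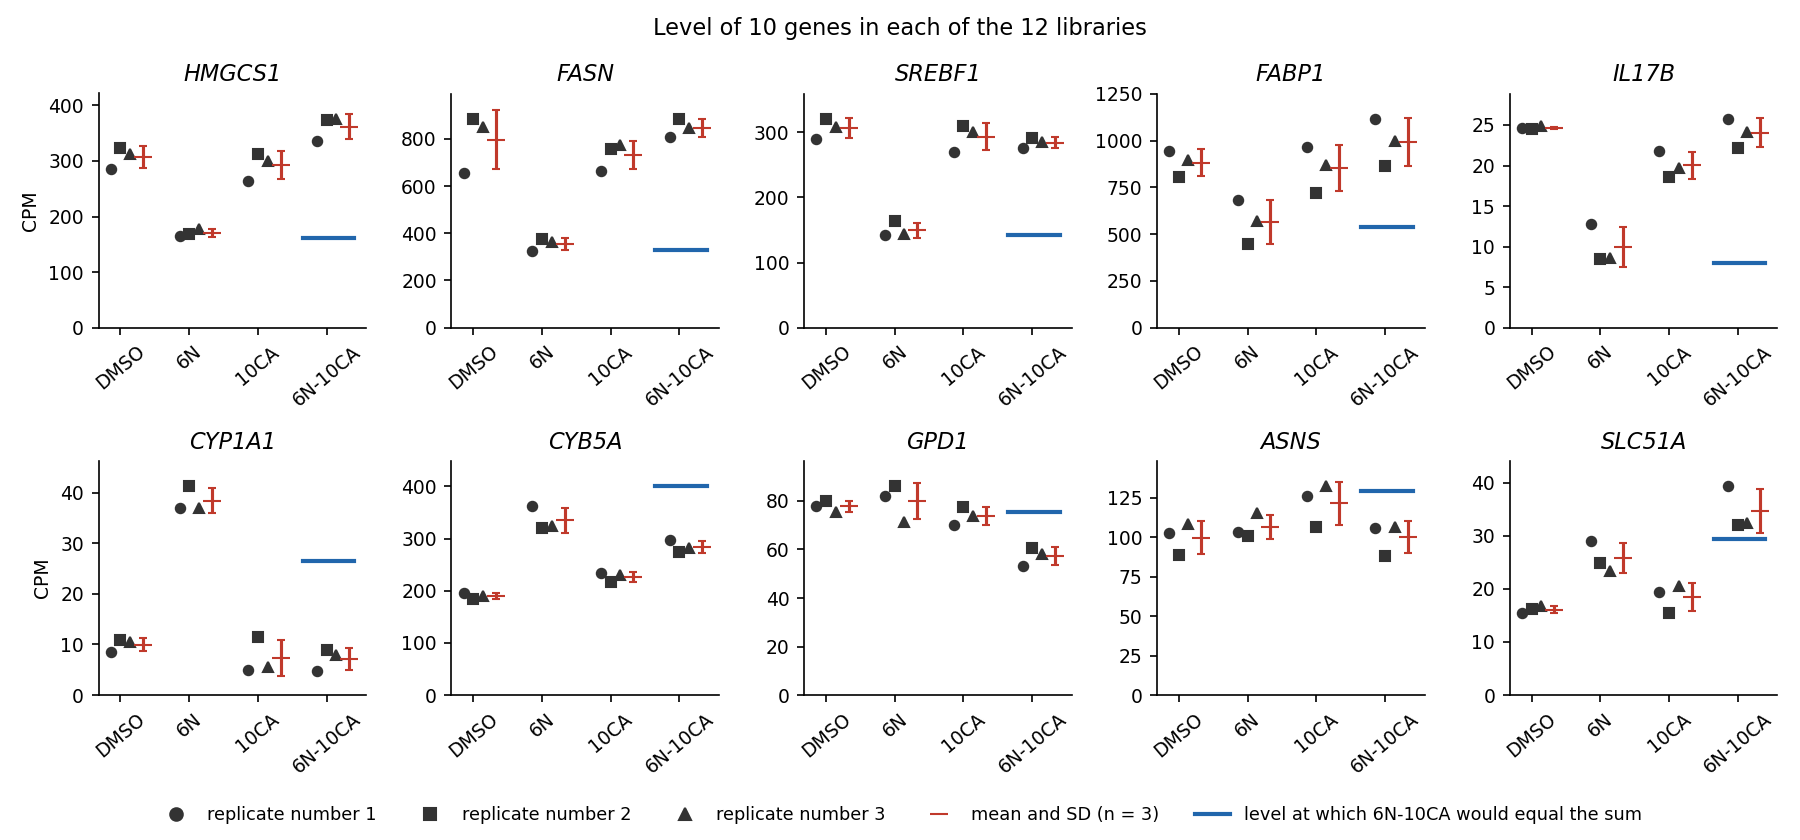
Level in CPM (vertical axes, each from 0) of 10 genes in each of the 12 libraries, by group, with symbols for the replicate number, red bars for the mean and SD of 3 libraries and a blue line at the level where 6N-10CA would equal the sum of both parents. In HMGCS1, FASN, SREBF1, FABP1 and IL17B the 6N-10CA libraries lie above the blue line, in CYP1A1, CYB5A, GPD1 and ASNS they lie below it, and in SLC51A, not called, all 3 lie above it.

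Genes that the series' receptor is known to control held 1 call: of 24 tested LRH-1 targets, FABP1 was called above and 0 were called below, with a median departure of 0.05. Over all tested genes, 1.93% were called, so a list of this size with 1 call is not set apart from them. CYP7A1, which starts the main route of bile acid synthesis, read 17.3, 15.7 and 14.9 CPM with DMSO, 22.3, 19.2 and 21.3 with 6N, 15.9, 15.2 and 13.5 with 10CA and 24.7, 20.5 and 19.6 with 6N-10CA. The 6N and 6N-10CA libraries lay above all DMSO and 10CA libraries, and the departure was 0.14 (95% interval -0.05 to 0.33, edgeR adjusted p = 0.502). NR0B2, the repressor SHP, had effects of 0.18 with 6N and 0.34 with 6N-10CA and a departure of 0.26 (95% interval 0.08 to 0.43). The departure of NR0B2 was not called, and the interval is not adjusted for the number of genes tested.

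SLC51A, which encodes the alpha subunit of a bile acid exporter (chromosome 3, 196211487 to 196243178), read 15.4, 16.2 and 16.7 CPM with DMSO, 28.96, 24.9 and 23.4 with 6N, 19.4, 15.4 and 20.5 with 10CA and 39.4, 32.0 and 32.4 with 6N-10CA. The order was 6N-10CA above 6N above DMSO without overlap, and 10CA overlapped DMSO. The sum corresponded to 29.3 CPM and 34.5 CPM were observed, a departure of 0.23 (95% interval -0.01 to 0.47, edgeR adjusted p = 0.371), so that an effect equal to the sum and one well above it both lie in the interval. Among 19 tested genes of bile acid synthesis and transport, the hydroxysteroid dehydrogenase HSD3B7 was called below at -0.19 (edgeR adjusted p = 0.53 without the block) and 0 were above. The shares over all tested genes were 0.608% below and 1.32% above.

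In all, 126 genes were called in the same direction with 6N and with 6N-10CA. The departure was called in 3 of them, CYB5A, DGAT2 and TTC39C, and in 1.93% of all tested genes. The departures of the latter 2 genes were not called without the block. The comparisons of 6N and of 6N-10CA with DMSO share the DMSO libraries with the departure. For 91.2% of the 10682 genes above 5 CPM, the 95% interval of the departure lay within 0.5 of 0 on the log2 scale, and the interval reached a median of 0.17 to either side, against 0.12 for a single effect.

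The remaining lists held few calls. Of 13 tested mitochondrial mRNAs, 3 were above (MT-ND1 at 0.28, MT-CO3 at 0.29 and MT-ND4L at 0.39) and 12 had a positive departure, beside a 10CA median of -0.17. Without the block or with library size as the only scaling, 0 of the 13 were called. Of all 14797 tested genes, 7333 had a positive departure, 1.32% were called above and 0.608% below. Of 18 NRF2 targets, 2 were above, among them the pentose phosphate enzyme PGD (0.28), and SRXN1 (-0.19) was below, PGD and SRXN1 with adjusted p-values of 0.0781 and 0.646 without the block. Of 20 acute phase proteins and of 18 markers of liver identity, the iron carrier TF was called above in both, at 0.26 (edgeR adjusted p = 2.31e-05, or 0.595 without the block). In the unfolded protein response 0 of 23 and in inflammatory signalling 0 of 15 were called. Their median departures were 0.05 and -0.03, although 8 members of the first were called lower with 6N and 10 with 6N-10CA. The plot of departures by list shows the cholesterol and fatty acid lists apart from the others, and the cell cycle list as a narrow group just below 0.

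**Figure D5:**
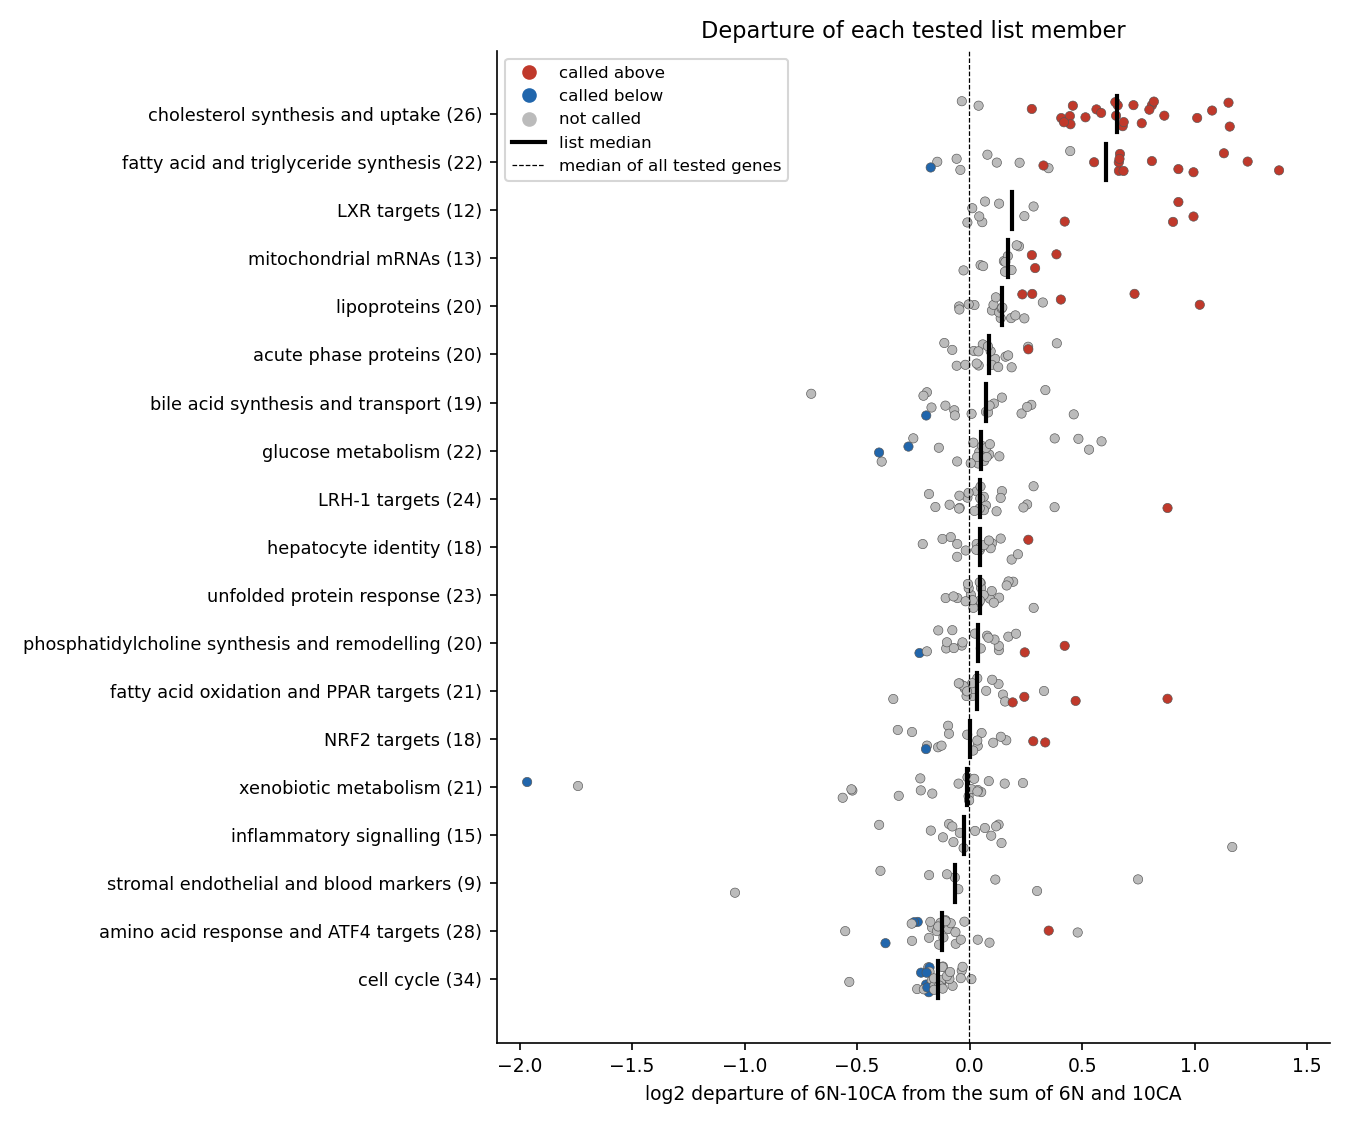
Log2 departure from the sum of every tested member of the 19 lists (members tested in parentheses), with called members in red (above) and blue (below), a black bar at each list's median and a dashed line at the median of all tested genes. Lists are ordered by their median, from 0.65 in the cholesterol list to -0.14 in the cell cycle list, and a gene on several lists is drawn in each.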

How the data were processed

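RNA-seq of 18 HepG2 libraries was deposited as 1 table of whole-number counts per gene symbol. Per the labels' protocols, amplified cDNA was fragmented with Nextera XT and read as single reads of 100 bases. The submitters' processing notes name GRCh38 and DESeq2, while the aligner, the counter, the annotation and the strand setting are unknown (not given in the sources used here), so overlapping and antisense genes cannot be told apart. The labels do not state which vehicle carried each compound, and DMSO was used for all 3.

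The deposited counts were scaled by TMM, filtered with filterByExpr (minimum count 10, minimum total 15) and fitted with edgeR 4.0.16 (R 4.3.3) in 1 quasi-likelihood model with 6 groups and the replicate number as a block, leaving 10 residual degrees of freedom. The contrast was tested two-sided, with Benjamini-Hochberg adjustment over all 14797 genes and a threshold of 0.05. The block was used because the definition of this contrast asks for it. The biological coefficient of variation was 4.42% with it and 6.96% without it. The labels do not say that replicates are separate cultures, so p-values measure the spread between these libraries, which may be technical. No library was a copy of another of its group (chi-square per gene at least 4.61).

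The genes and lists were chosen with earlier results of these data known. Named genes were called, averaged at least 1 CPM over the 12 libraries and kept 1 sign in replicate numbers 1, 2 and 3. They were the 12 largest above, the 12 largest below, the 3 called genes of smallest p in each of 19 lists, and NR5A2, CYP1A1, CYP7A1 and SLC51A. Other list members are given to describe their list. Some genes that the rule or the lists hold are not reported here by name, but count in every total.

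Alternatives were DESeq2 1.42.0, limma 3.58.1 (voom, and on linear CPM), other scalings, filters and reference groups, the 12 libraries alone, and leaving out each library or replicate number. A count of 3 equals 0.0857 to 0.103 CPM before TMM scaling in the 12 libraries, and it covers counting error only, since reads carried no molecular identifiers. Gene positions are from GENCODE v29 by symbol (94.0% of tested genes matched), and promoters are from RefSeq. The table holds 28 symbols altered to dates, of which 22 were tested and 0 called. The step was tested on simulated counts with known log2 departures in either direction. It recovered 13 of 66 genes at a size of 0.25, 52 of 67 at 0.5 and 61 of 67 at 1. Of the 136 calls in that run, 10 were false. Departures near 0.25 are thus mostly missed.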

Additional observations from a re-analysis of the deposited data

How the results depend on the processing

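The number of called genes (286, 196 above and 90 below) moved with the model more than with the scaling. Without the replicate block it was 88 (84 and 4), and the single comparisons then called 169 genes for 6N, 0 for 10CA, 39 for 6N-10CA and 242 for 6N-10CA against 6N. With no low-count filter it was 619 (412 and 207), with ethanol as the zero 546 (346 and 200), with the mean of both vehicles as the zero 480 (305 and 175), and against the mean of both parents 643 (375 and 268), which is a different question. With the 12 libraries alone, 14564 genes were tested and 256 called, among them 168 of the 196 above and 57 of the 90 below. DESeq2 called 142 genes below and library size alone 139. Leaving out 1 library or 1 replicate number gave 113 to 312 genes in all, 101 to 216 above and 12 to 96 below. Among single libraries, those without which the total fell more than 1.5-fold were DMSO number 3 (183) and 6N-10CA number 1 (186). The count below was 39 to 59 without any one of DMSO number 2 or 3, 6N number 1, or any 10CA or 6N-10CA library. Leaving out a whole number left 138, 132 and 113 genes, with fewer libraries in the fit. The other causes were not tested.

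For the 55 named genes, 1208 of 1484 refits kept the side of the threshold. These also kept the direction, except for NR5A2, which was not called in any refit and whose departure ran from -0.28 to 0.11. A further 273 refits kept the direction and lost the call, and 2 gained it. Among called genes 1 refit reversed, which was CYB5A against the mean of both parents (0.041, edgeR adjusted p = 0.516). Of the cholesterol list, 22 to 24 members were above in every refit, while the calls in the cell cycle list ran from 0 to 12.

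Same-numbered libraries deviated together weakly over all tested genes (correlation 0.0045 to 0.18, median 0.073, 18 pairs) and more strongly above 5 CPM (0.086 to 0.59, median 0.36). Each of the 12 libraries was closest to its own number, which is a hint from the data and not from the design, so the labels leave the pairing unknown.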

Other observations

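Most called genes belonged to none of the 19 lists: 140 of the 196 above the sum and 74 of the 90 below. Among those below, 2 further groups were seen and listed after the values were known, so their counts are a description with no test. Of 78 tested ribosome biogenesis factors, 75 had a negative departure, against 7464 of all 14797 tested genes. Of the 78, 11 were called below the sum (0.608% of all tested genes were) and 0 above, and their median departure was -0.13. Their median effects were 0.06 with 6N, 0.03 with 10CA and -0.05 with 6N-10CA. The called members included RSL24D1 (-0.34) and RRS1 (-0.33), assembly factors of the large subunit, TSR1 (-0.26) and PNO1 (-0.27) of the small subunit, and TCOF1 (-0.20), which acts in rRNA transcription. Without the block 1 of the 78 was called, and 1 to 9 were called when 1 library or 1 replicate number was left out.

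All 20 cytosolic tRNA synthetases had a negative departure (7464 of all 14797 tested genes did), with a median of -0.13. Of the 20, 3 were called below, against 0.608% of all tested genes: MARS (-0.26), YARS (-0.21) and GARS (-0.19). These charge the tRNAs of methionine, tyrosine and glycine. The median effects of the 20 were 0.04 with 6N, 0.11 with 10CA and -0.01 with 6N-10CA. Without the block 0 of the 20 were called, and 0 to 4 were called when 1 library or 1 replicate number was left out.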
